A study of Mus musculus with 18 samples.

Results

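Colon crypt epithelial cells of germ-free (GF) mice were compared between the genotype labels Ern2-/- and WT by RNA-Seq. All libraries with these labels were taken, 3 labelled GF-Ern2-/- and 3 labelled GF-WT, which are 6 of the study's 18 libraries. Among 24047 genes listed, 17198 were counted in some GF library. Both GF groups carried the strain label C57BL/6 and had been rederived without microbes and kept in sterile isolators. Per the study's methods the WT mice were C57BL/6J and the Ern2-/- mice came from another laboratory. Neither the methods nor the labels name a Cre driver or a tissue for the deletion. The other groups, used here only for comparison, were WT and Ern2-/- mice raised with a conventional microbiota (CONV) and former germ-free mice examined 14 days after they were given a cecal microbiota (COLONIZED). Age, sex and litter of the GF mice were not given in the sources used here. Nothing in the labels says how animals map to libraries, so that p-values measure the spread between these samples. GF-WT and GF-Ern2-/- below name libraries by their labels.

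Ern2 encodes ERN2 (IRE1β), a sensor of protein folding in the endoplasmic reticulum (ER) of mucus-producing epithelium and a close relative of the ubiquitous ERN1 (IRE1α). These proteins have a kinase and an RNase domain and take part in the unfolded protein response (UPR), in which the RNase splices Xbp1 mRNA into the form that encodes an active transcription factor. XBP1 in turn raises chaperones, disulfide isomerases and degradation factors of the ER. Goblet cells are the main mucus producers of the colon crypt and fold, glycosylate and pack large amounts of the mucin MUC2, and gut microbes are known to influence their number and products.

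Library totals lay between 13.8 and 23.2 in units of 1e6 counts. Markers of colon epithelium were detected in every library (15 of 15 genes). Summed markers of immune cells ranged from 5.82 to 10.7 counts scaled to a library of 1e6 (CPM) in GF-WT and from 7.80 to 13.9 CPM in GF-Ern2-/-, and markers of mesenchyme from 24.6 to 30.02 CPM and from 23.4 to 40.6 CPM. Among the mesenchyme markers Pdgfrb ranged from 17.5 to 35.2 CPM and Vim from 2.70 to 4.26 CPM. The next highest, Acta2, reached 0.943 CPM. Y-linked genes were at or near 0 in the 3 GF-WT libraries and in GF-Ern2-/- replicate 3, and were present in GF-Ern2-/- replicates 1 and 2, in which Xist was nearly absent (7.24 and 2.48 normalized counts, against 8085 to 10328 in the other 4 libraries). GF-Ern2-/- replicate 2 stood apart. In it 1596 genes lay more than 2-fold from the median of the other libraries, against 208 to 609 genes in the others, and the first principal component (66.0% of the variance over 500 genes) placed it at one end. Genes that led that end were absorptive and ileal genes such as Apoa1, Cyp2c55, Car1 and Fabp6. Its summed markers of epithelium from other sites, 13 of which were tested, reached 776 CPM, against 74.7 to 226 CPM in the other 5 libraries. Among these markers Apoa1, Fabp6, Sis and Alpi had the highest maxima over the GF libraries (379, 189, 91.9 and 72.0 CPM). Gkn1, Gkn2 and Krt5 were at 0 in every GF library.

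The targeted gene was examined first. Normalized counts of Ern2 were 3132, 2330 and 3000 in GF-WT replicates 1, 2 and 3, and 3494, 477 and 4117 in GF-Ern2-/- replicates 1, 2 and 3. The groups overlapped, with 1 low library among those labelled GF-Ern2-/- and the other 2 above all GF-WT libraries. The difference was -0.07 on the log2 scale, with a 95% interval from -1.66 to 1.53, and it was not called. In the other microbial states the libraries labelled Ern2-/- lay between 91.9 and 178 CPM (COLONIZED) and between 62.0 and 103 CPM (CONV), against 156 to 191 CPM and 140 to 211 CPM in the WT libraries. Only in CONV mice did the groups not overlap, and the genotype difference in GF mice was not called as different from that in CONV mice (interaction log2 -0.95, adjusted p = 0.819) or in COLONIZED mice (-0.30, adjusted p = 0.998). Gene-level counts do not separate the exons of a transcript, so that they give no check of a deleted part, and the Ern2 level did not tell the GF genotype labels apart.

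**Figure D1:**
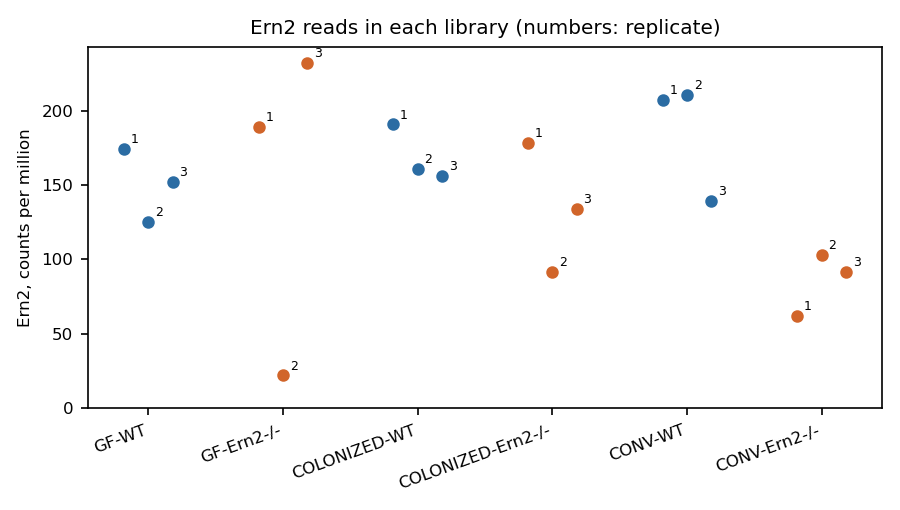
Ern2 in CPM in each of the 18 libraries, grouped by microbial state and genotype label, with 1 point per library. In GF mice 2 of the 3 libraries labelled Ern2-/- (189 and 232 CPM) lie above all GF-WT libraries, and replicate 2 lies at 22.1 CPM.

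The question of the comparison was whether loss of ERN2 alters crypt gene expression when no microbes are present. Of 17168 genes tested, 6 were called at an adjusted p under 0.01 with DESeq2 (0.0349%), 2 of which were higher and 4 lower in GF-Ern2-/-. The quasi-likelihood test of edgeR called 0 genes on the same libraries, with 194 of 12604 genes at an unadjusted p under 0.05. By DESeq2 254 genes had an unadjusted p under 0.05, which were 96 higher (0.559%) and 158 lower (0.92%). Without overlap between the groups were 402 genes higher (3.21%) and 374 lower (2.99%), of 12527 genes with a mean normalized count of 10 or more. The middle of the distribution was close to 0, with a median log2 difference of 0.02 and 5th and 95th percentiles of -0.47 and 0.43. In a separate test of the size of the difference, 8580 of 10973 genes (78.2%) lay within 2-fold. Precision was set by the spread between libraries, and for 10196 genes with a mean of at least 100 the median half-width of the 95% interval was 0.459 on the log2 scale. That spread was wider in GF-Ern2-/- (median SD 0.290 log2) than in GF-WT (0.193). Over GF-Ern2-/- replicates 1 and 3 alone it was 0.157, an SD of 2 libraries that does not compare directly with those of 3.

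**Figure D2:**
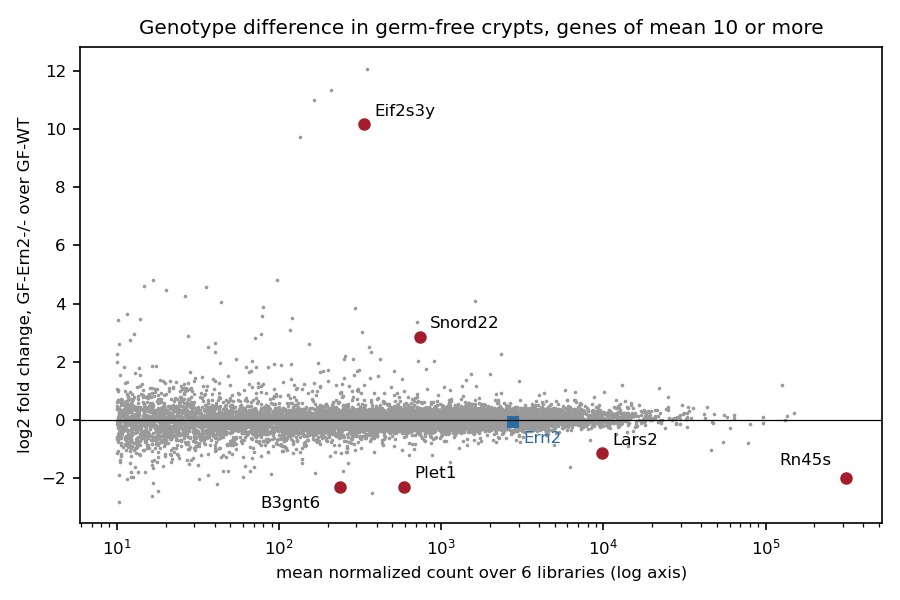
Log2 fold change of GF-Ern2-/- over GF-WT (vertical axis) against the mean normalized count over the 6 libraries (horizontal axis, log scale), with 1 point for each of the 12527 genes with a mean of 10 or more. The 6 called genes are red and named, Ern2 is the blue square at -0.07, and the gray points near Eif2s3y include the Y-linked genes Kdm5d and Ddx3y, counted in GF-Ern2-/- replicates 1 and 2 alone.

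A pair of protein-coding genes of the epithelium, B3gnt6 and Plet1, were called lower. B3gnt6 encodes the core 3 synthase, which adds N-acetylglucosamine to the first sugar of mucin O-glycans in the colon, and lies at chr7:98192415-98199475 (GRCm38). Normalized counts of B3gnt6 were 217, 332 and 631 in GF-WT, and 102, 49.6 and 84.9 in GF-Ern2-/-. All GF-Ern2-/- libraries lay below all GF-WT libraries, and the log2 difference was -2.31 (SE 0.43, adjusted p = 0.000425). Plet1 encodes a membrane-anchored glycoprotein of epithelial progenitors and lies at chr9:50494525-50505639. Normalized counts of Plet1 were 392, 1041 and 1494 in GF-WT, and 195, 119 and 282 in GF-Ern2-/-. The groups again did not overlap, and the log2 difference was -2.30 (SE 0.46, adjusted p = 0.0021). Both genes spread more than 2-fold among the GF-WT libraries, in which replicate 1 was the lowest for each. The calls depended on single libraries. B3gnt6 was not called without GF-WT replicate 2 (-2.42, adjusted p = 0.0531), GF-WT replicate 3 (-1.79, adjusted p = 0.0776) or GF-Ern2-/- replicate 3 (-2.36, adjusted p = 0.0144). Plet1 was not called without GF-WT replicate 2 (-2.25, adjusted p = 0.413), GF-WT replicate 3 (-1.85, adjusted p = 0.640) or GF-Ern2-/- replicate 1 (-2.28, adjusted p = 0.0558) or 2 (-2.05, adjusted p = 0.0516). Both stayed below 0 in each of these fits. With sex as a term, which leaves GF-Ern2-/- replicate 3 as the only library of that label to set against GF-WT, both calls were lost (adjusted p = 0.726 and 0.9999) at differences of -2.21 and -1.79. Neither was called with library total as a term (-1.86 and -2.26), and Plet1 was not called with all 18 libraries in the fit (adjusted p = 0.0228).

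The promoter of Plet1 is shown because the gene was called in GF mice and, as given further on, in CONV mice. Its 250 bases before the annotated start (chr9:50494275-50494524, plus strand, RefSeq, GRCm38.p6) are given with a TATA box, the letters TATAAA, in capitals. Of 32851 mouse promoters, 12.4% hold these letters on either strand. In Plet1 the match began 30 bases before the start.
Plet1: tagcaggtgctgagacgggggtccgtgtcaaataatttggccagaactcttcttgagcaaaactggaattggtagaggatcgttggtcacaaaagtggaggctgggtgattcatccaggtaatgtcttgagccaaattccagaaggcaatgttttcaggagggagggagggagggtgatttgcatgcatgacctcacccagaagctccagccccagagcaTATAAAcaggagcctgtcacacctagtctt

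The remaining 4 calls were Rn45s, Lars2, Snord22 and Eif2s3y. Rn45s, the precursor of the 18S, 5.8S and 28S ribosomal RNAs, took 2.24%, 2.05% and 3.57% of all counts in GF-WT and 0.844%, 0.554% and 0.566% in GF-Ern2-/-. Each GF-Ern2-/- library lay below each GF-WT library, with a log2 difference of -1.99 (SE 0.30, adjusted p = 2.05e-07), and the gene was called whichever single library was left out. It was not called with a replicate block (-1.95) or with library total as a term (-1.53, adjusted p = 0.0663). Nor was it called by edgeR (-1.995, adjusted p = 0.9995) or by limma with voom (-1.97, adjusted p = 0.9991). Lars2, the mitochondrial leucyl-tRNA synthetase, moved with it. Normalized counts of Lars2 were 12387, 15200 and 12550 in GF-WT and 6208, 7371 and 4718 in GF-Ern2-/-. The groups did not overlap, and the log2 difference was -1.13 (SE 0.23, adjusted p = 0.00174). Lars2 was not called without any one of the 3 GF-WT libraries or without GF-Ern2-/- replicate 1, with differences from -1.18 to -1.03, nor with library total as a term (-0.91) or all 18 libraries in the fit (-1.14). The next gene by p-value, Mir6236, had 6262, 7224 and 5799 normalized counts in GF-WT against 3118, 4141 and 3241 in GF-Ern2-/-, and at an adjusted p of 0.0291 it was not called. Rn45s, Lars2 and Mir6236 were thus each lowest in the same 3 libraries, and the part of 1 locus in the counts of another was not tested.

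Snord22, a small nucleolar RNA, was higher. Normalized counts of Snord22 were 276, 171 and 87.9 in GF-WT, and 555, 1208 and 2129 in GF-Ern2-/-. The groups did not overlap, and the log2 difference was 2.86 (SE 0.49, adjusted p = 3.84e-05), yet levels varied widely within both. It was not called without GF-WT replicate 2 or 3 or GF-Ern2-/- replicate 2 or 3, at differences from 2.31 to 2.90. The call was also lost with a replicate block (2.81), library total as a term (1.54, adjusted p = 0.169) or all 18 libraries in the fit (2.85, adjusted p = 1). Snhg1, the gene whose introns host it (chosen after its values were seen), had 422, 534 and 283 normalized counts in GF-WT and 502, 269 and 422 in GF-Ern2-/-, which overlapped, with a log2 difference of -0.05. Of 85 small nucleolar RNA genes tested, 1 was called, which was this one, against 6 of 17168 over all genes (0.0349%). The sixth call, Eif2s3y, lies on the Y chromosome, and its 0, 0.855 and 0.854 normalized counts in GF-WT against 1066, 931 and 1.29 in GF-Ern2-/- follow the Y-linked genes described above. It was not called with sex as a term, a replicate block (9.28, adjusted p = 0.0666) or all 18 libraries in the fit. Nor was it called without GF-WT replicate 2 or 3 or GF-Ern2-/- replicate 1 or 2. Sequences are given to show which molecules these loci hold.
The mature miR-6236 is printed with its seed, bases 2 to 8, in capitals (chr9:110281353-110281371, plus strand, RefSeq GRCm38.p6), and the mRNA library counts the locus rather than the mature miRNA.
mmu-miR-6236: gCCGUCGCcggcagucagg
Snord22 is printed with its box D, CTGA, in capitals (chr19:8725866-8725991, plus strand, GENCODE GRCm38, 126 bases).
Snord22: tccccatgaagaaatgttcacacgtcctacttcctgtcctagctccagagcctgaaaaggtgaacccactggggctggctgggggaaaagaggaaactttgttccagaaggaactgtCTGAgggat

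**Figure D3:**
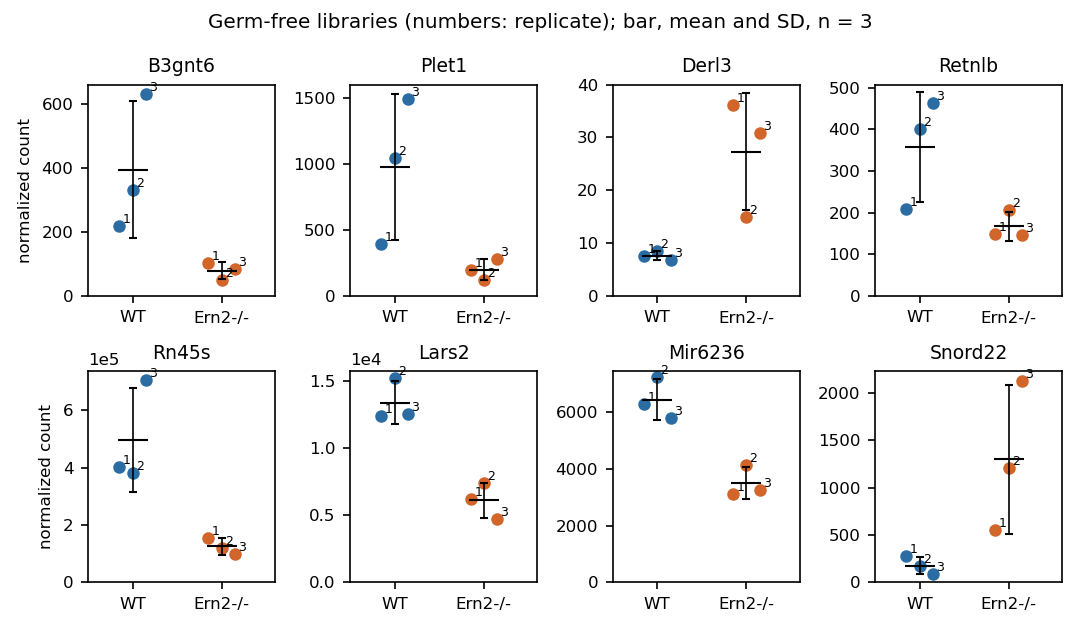
Normalized counts (vertical axes, linear from 0) of B3gnt6, Plet1, Derl3, Retnlb, Rn45s, Lars2, Mir6236 and Snord22 in each GF library, with points numbered by replicate, blue for WT and orange for Ern2-/-, and bars for the mean and SD (n = 3). The labels do not overlap in any panel, Derl3 and Snord22 are higher in Ern2-/- and the other 6 are lower, and the spread is wide in WT for B3gnt6 and Plet1.

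Genes that were not called but did not overlap between the groups were ranked by p-value among those with a mean of at least 100. The 8 in the higher direction were Ifi47, Pnp2, Hsp90aa1, 2810417H13Rik, Nlrp6, Chchd1, Creld2 and E2f2. Ifi47, an interferon-induced GTPase, had 65.5, 98.3 and 61.5 normalized counts in GF-WT and 212, 176 and 129 in GF-Ern2-/- (log2 difference 1.20, unadjusted p = 0.000321). Hsp90aa1, the inducible cytosolic HSP90, had 2026, 1669 and 1450 against 2257, 3232 and 2814 (log2 0.69). Nlrp6, an inflammasome sensor of the epithelium, had 5750, 6073 and 5659 against 7533, 7288 and 7888, a narrow separation of 0.38 that lay within 2-fold by the test of size. The 8 in the lower direction were Mir6236, Casc4, Muc1, Kdm8, Fnip2, Retnlb, D830031N03Rik and Ptprn2. Muc1, a mucin anchored in the apical membrane, had 370, 288 and 394 normalized counts in GF-WT against 184, 104.1 and 203 in GF-Ern2-/- (log2 -1.10, unadjusted p = 0.000371). Retnlb, an antimicrobial goblet cell protein, had 209, 401 and 463 against 149, 207 and 145 (log2 -1.10). Kdm8, a Jumonji-domain protein, had 143, 133 and 155 against 77.9, 65.7 and 81.0 (log2 -0.94). In no case did the adjusted p pass 0.01, and that of Casc4, after Mir6236, was 0.352.

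Goblet cell genes were examined as lists. Of 399 goblet signature genes tested, a list of goblet markers the study took from earlier single-cell work, 0 were called and 6 had an unadjusted p under 0.05 in the higher (1.5%) and 22 in the lower direction (5.51%), against 0.559% and 0.92% of all genes. Without overlap were 9 higher (2.27%) and 30 lower (7.56%), against 3.21% and 2.99% of all genes. The median log2 difference was -0.07, and it was 0.07 with library total as a term and -0.23 with sex as a term. Without GF-Ern2-/- replicate 2 it was -0.09, with 2 genes higher and 17 lower at an unadjusted p under 0.05, where 95 and 124 of all genes were. It was -0.15 without GF-Ern2-/- replicate 1 and 0.00 without replicate 3. Among secreted mucus components, Muc2, the gel-forming mucin, had 59667, 63421 and 62026 normalized counts in GF-WT against 47484, 12058 and 31826 in GF-Ern2-/- (log2 -1.02, SE 0.40, unadjusted p = 0.0116). The GF-WT libraries lay close together and all GF-Ern2-/- libraries lay below them, most of all replicate 2, and without that library the difference was -0.65. Fcgbp, a mucus-network protein, overlapped between groups at a difference of -0.79, as did Clca3 (-0.77), Zg16 (-0.28), Tff3 (-0.11) and Agr2 (-0.11), while Spink4 was at 0.24. When replicate 2 of GF-Ern2-/- was left out, Tff3 was at -0.74 (unadjusted p = 0.00252), Zg16 at -0.58 and Spink4 at -0.09, while Fcgbp (-0.88), Clca3 (-0.86) and Agr2 (-0.12) stayed below 0. Of 28 mucus layer and goblet product genes tested, 4 of the lower (14.3%) and 1 of the higher direction (3.57%) had an unadjusted p under 0.05, against 0.92% and 0.559% of all genes, and the list had a median of -0.15. That median was -0.42, -0.29 and 0.03 without GF-Ern2-/- replicate 1, 2 and 3 in turn. It was -0.54 with sex as a term and -0.01 with library total as a term.

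Factors that specify secretory cells ranged from -0.83 to 0.37 on the log2 scale, and 0 of them were called. Spdef, which drives goblet maturation, had 1051, 1237 and 1595 normalized counts in GF-WT against 657, 511 and 1163 in GF-Ern2-/- (log2 -0.74, unadjusted p = 0.0262), so that the groups overlapped in 1 library. Atoh1, which sets secretory fate, was at -0.40 and Gfi1, which acts downstream, at -0.36, and neither was called. Of 24 secretory lineage factors tested, 3 were lower at an unadjusted p under 0.05 (Cbfa2t3, Creb3l4 and Spdef; 12.5%, against 0.92% of all genes), 0 were higher and the median was -0.12, which became 0.10 with sex as a term. With GF-Ern2-/- replicate 2 left out the median was -0.02. At an unadjusted p under 0.05 in that fit 0 of these factors were higher and 1 lower, where 95 and 124 of 17027 genes were. Spdef was at an unadjusted p of 0.0842 and Creb3l4 at 0.0583. The median was -0.32 without GF-Ern2-/- replicate 3. Transmembrane mucins numbered 5 tested, of which Muc1, given above, was at -1.10, Muc4 at -0.68 and Muc13 at 0.02. They were at -0.87, -0.30 and -0.15 without GF-Ern2-/- replicate 2. Of 35 enzymes of mucin O-glycans, B3gnt6 was the 1 called, against 0.0349% of all genes. At an unadjusted p under 0.05 were 2 lower (5.71%, against 0.92% of all genes) and 0 higher, and without overlap 3 were lower (9.09%, against 2.99%) and 1 higher (3.03%, against 3.21%). A4gnt, which caps O-glycans with α1,4-linked N-acetylglucosamine, had 123, 369 and 664 normalized counts in GF-WT against 79.7, 180 and 81.0 in GF-Ern2-/- (log2 -1.77, unadjusted p = 0.00119), and these overlapped in 1 library. Fut2, a fucosyltransferase, was at -0.53, and the median of the enzymes was -0.10, which was 0.05 with library total as a term, -0.41 with sex as a term and from -0.25 to -0.03 over left-out libraries. Leaving out GF-Ern2-/- replicate 2 put Fut2 at -0.26 and A4gnt at -2.28.

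The UPR was examined because ERN2 is one of its sensors. Ern1, the related sensor, was at -0.23 and overlapped between groups, and it was at -0.07 without GF-Ern2-/- replicate 2. Xbp1 had 3590, 3266 and 3959 normalized counts in GF-WT against 3266, 3354 and 3033 in GF-Ern2-/- (log2 -0.16) and lay within 2-fold. Total Xbp1 counts do not distinguish spliced from unspliced mRNA. Of 29 ER chaperone and degradation genes tested, 0 were called, but 7 had an unadjusted p under 0.05 in the higher direction (24.1%, against 0.559% of all genes) and 0 in the lower, and 7 were higher without overlap (24.1%, against 3.21%). Their median was 0.29. Hspa5, the chaperone BiP, had 7636, 6409 and 6736 normalized counts in GF-WT and 9011, 13401 and 7824 in GF-Ern2-/- (log2 0.54, unadjusted p = 0.0283). Creld2 (0.56), Sdf2l1 (0.73), Calr (0.52) and Manf (0.49), which assist folding or are secreted under ER stress, did not overlap either. GF-Ern2-/- replicate 2 was the highest library for Hspa5, Calr, Sdf2l1, Creld2 and Manf, and without it the list median was 0.11. At an unadjusted p under 0.05, 2 of the 29 genes were then higher and 1 lower, where 95 and 124 of 17027 genes were. Without overlap 7 were higher and 1 lower, where 859 and 621 of 12527 genes were. In that fit Hspa5 was at 0.27 (unadjusted p = 0.0909), Calr at 0.27, Sdf2l1 at 0.39, Manf at 0.30 and Creld2 at 0.48. With sex as a term the list median was 0.00. For 15 UPR sensors and effectors the median was -0.11. At an unadjusted p under 0.05 were 0 higher and 2 lower (13.3%, against 0.92% of all genes). Without overlap 0 were higher and 2 lower (13.3%, against 2.99%). Without GF-Ern2-/- replicate 2, 1 was higher and 0 lower at that p, where 95 and 124 of all genes were. Without overlap in that fit 1 was higher and 4 lower, where 859 and 621 of 12527 genes were. For 25 ATF4 and CHOP stress genes the median was 0.04. Ddit3 (CHOP) was at 0.18, and from -0.27 to 0.40 over left-out libraries (0.40 without GF-Ern2-/- replicate 2).

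Derl3, an XBP1-dependent channel component of ER-associated degradation, had the steepest difference of the chaperone list. Normalized counts of Derl3 were 7.48, 8.55 and 6.83 in GF-WT, and 36.2, 14.9 and 30.9 in GF-Ern2-/-. No library overlapped at these low counts, and the log2 difference was 1.85 (SE 0.63, unadjusted p = 0.00357), which did not pass adjustment. It was 2.13 without replicate 2. The 250 bases before its start (chr10:75893148-75893397, plus strand, RefSeq GRCm38.p6) are shown because they hold, in capitals, an ER stress response element (ERSE), the letters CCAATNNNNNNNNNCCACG, which is read on the minus strand.
Derl3: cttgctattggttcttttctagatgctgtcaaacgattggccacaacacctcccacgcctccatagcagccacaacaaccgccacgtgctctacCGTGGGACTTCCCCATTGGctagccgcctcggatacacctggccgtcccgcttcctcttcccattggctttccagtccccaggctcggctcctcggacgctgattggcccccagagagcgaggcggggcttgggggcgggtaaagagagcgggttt
Of 32851 mouse promoters, 37 (0.113%) hold these letters on either strand. The window also held 5 CCAAT (33.8% of promoters hold one) and 3 CCACG (28.3%), some of which overlap the element.

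Enterocyte, surface colonocyte, tuft and proliferation medians changed sign when 1 library was left out, while enteroendocrine and stem medians stayed below 0. Enterocyte signature genes had a median of 0.16, with 18 higher and 0 lower at an unadjusted p under 0.05 (3.83% and 0%, against 0.559% and 0.92% of all genes). Without GF-Ern2-/- replicate 2 the median was -0.10 and the counts 3 and 3, where 95 and 124 of 17027 genes were. GF-Ern2-/- replicate 2 was the library in which markers of epithelium from other sites were highest. The part of these markers in the enterocyte result was not tested. The highest log2 difference was 4.83 both among these markers and in the enterocyte signature, so that the lists may share genes. Surface colonocyte genes, which mark the upper crypt and surface, had a median of 0.22 and, without that library, -0.23. Car1, carbonic anhydrase of absorptive cells, had 16715, 88488 and 123620 normalized counts in GF-WT and 19354, 463210 and 49573 in GF-Ern2-/-, and it spanned a wide range in each group. Its log2 difference was 1.22, and -1.16 without that library. Enteroendocrine signature genes had a median of -0.18, with 0 higher and 6 lower (3.61%, against 0.92% of all genes) at an unadjusted p under 0.05. Without GF-Ern2-/- replicate 2 the median was -0.19, and 0 were higher and 3 lower at that p, where 95 and 124 of 17027 genes were. Enteroendocrine hormone genes had a median of -0.34, which leaving out GF-Ern2-/- replicate 2 took to -0.75 and leaving out GF-WT replicate 3 to -0.08. Of 23 tested, 0 were higher and 5 lower (21.7%, against 0.92% of all genes) at an unadjusted p under 0.05. The lower count was also 5 without GF-Ern2-/- replicate 2, where 124 of 17027 genes were lower at that p. Lower without overlap were 4 (18.2%, against 2.99% of all genes). In the fit without GF-Ern2-/- replicate 2 this count was 9, where 621 of 12527 genes were lower without overlap. Pyy, peptide YY, had 654, 569 and 559 normalized counts in GF-WT against 433, 487 and 282 in GF-Ern2-/- (log2 -0.57, unadjusted p = 0.0281). Stem signature genes had a median of -0.10 (-0.02 without GF-Ern2-/- replicate 2), tuft signature genes of 0.02 (-0.02 without GF-Ern2-/- replicate 3) and proliferation genes of 0.11 (-0.06 without GF-WT replicate 3). None of these 3 lists held a called gene. At an unadjusted p under 0.05 were 0 higher and 1 lower of 126 stem genes (0.794%), 3 higher (0.616%) and 2 lower (0.411%) of 487 tuft genes, and 1 higher (3.12%) and 0 lower of 32 proliferation genes, against 0.559% and 0.92% of all genes. Without overlap 3 proliferation genes were higher (9.38%) and 0 lower, against 3.21% and 2.99% of all genes. Of the stem genes 0 were higher and 2 lower (1.77%), and of the tuft genes 15 (3.29%) and 14 (3.07%). Leaving out GF-Ern2-/- replicate 2 gave 6 proliferation genes higher and 0 lower, where 859 and 621 of 12527 genes were.

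Some lists followed single libraries. Interferon-stimulated genes had a median of 0.98 over 30 genes with a mean of 10 or more, 22 of which were tested, yet summed CPM was 1001, 632 and 663 in GF-WT and 2283, 537 and 674 in GF-Ern2-/-. The first library of each group was the highest. Without GF-Ern2-/- replicate 1 the median was -0.56. Circadian clock genes had a median of -0.60, which was -0.13 without GF-WT replicate 3, -0.32 without GF-Ern2-/- replicate 2 and -0.12 with sex as a term. Among them Dbp had 71.1, 391 and 1458 normalized counts in GF-WT and 108, 65.7 and 165 in GF-Ern2-/-, with GF-WT replicate 3 the highest. Mitochondrial ribosomal protein genes (77 genes, median 0.24), nuclear respiratory chain genes (median 0.26 over 88 genes with a mean of 10 or more) and proteasome subunit genes (37 genes, median 0.26) had a positive median under each setting that was run, but GF-Ern2-/- replicate 2 had the highest mean deviation for each. Without that library the medians were 0.10, 0.08 and 0.05. In that fit 0 of these genes had an unadjusted p under 0.05, where 95 higher and 124 lower of 17027 genes did. Without overlap 13, 14 and 6 were higher and 0, 2 and 2 lower, where 859 and 621 of 12527 genes were. With sex as a term the medians were 0.14, 0.08 and 0.05. In the 3 lists 2 (2.6%), 3 (3.3%) and 0 genes had an unadjusted p under 0.05 in the higher direction, against 0.559% of all genes, 1 respiratory chain gene had one in the lower direction, and 0 were called. Higher without overlap were 13 (16.9%), 12 (13.6%) and 6 (16.2%), against 3.21% of all genes. Genes that differ between mouse substrains had a median of 0.00, with Nnt, an enzyme of the mitochondrial inner membrane, at 640, 534 and 562 normalized counts in GF-WT and 575, 630 and 485 in GF-Ern2-/-.

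**Figure D4:**
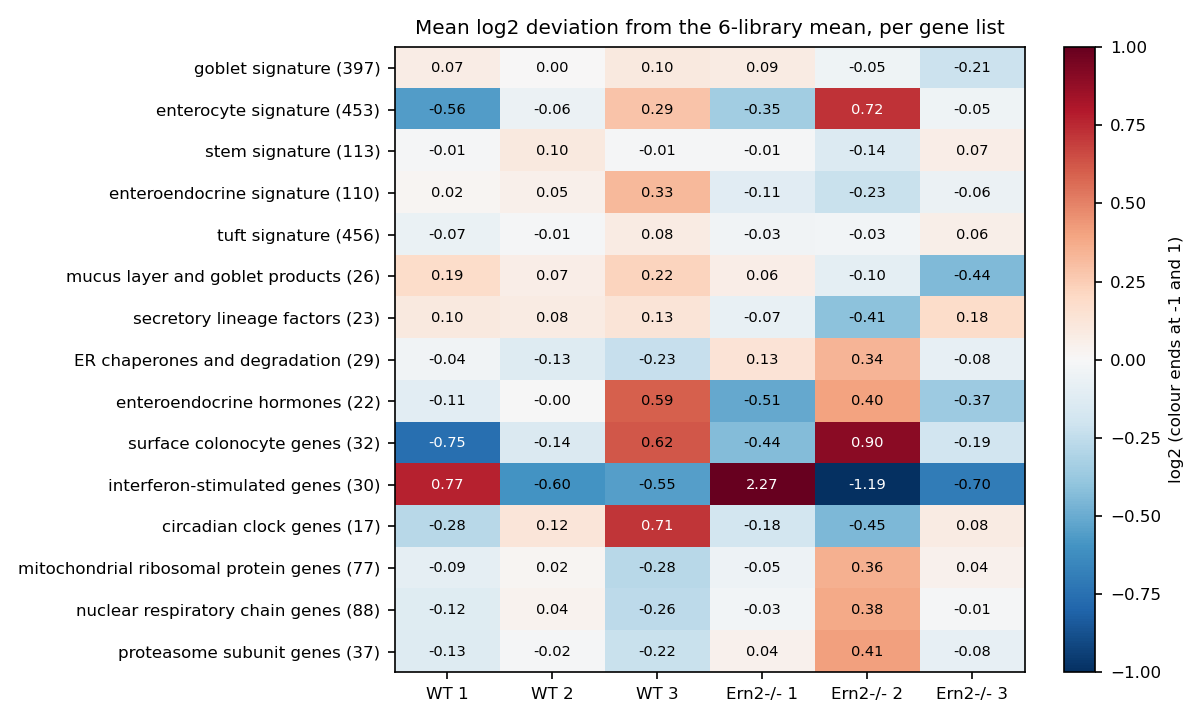
Mean log2 deviation from the mean of the 6 GF libraries for each gene list (rows, with the number of genes of mean 10 or more) in each library (columns), in color from blue (low) to red (high), which saturates at 1 in either direction. Interferon-stimulated genes are highest in GF-Ern2-/- replicate 1 (2.27), and enterocyte (0.72) and surface colonocyte genes (0.90) in GF-Ern2-/- replicate 2.

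The same genes were then read in mice with microbes, in libraries that the GF comparison did not use. By DESeq2, 381 of 13260 genes (2.87%) were called between genotype labels in CONV mice and 163 of 13591 (1.2%) in COLONIZED mice, against 0.0349% in GF mice. The CONV labels were not balanced by sex, with Y-linked Eif2s3y at 40.8, 0 and 0 CPM in CONV-WT and 36.3, 42.9 and 30.5 CPM in CONV-Ern2-/-. Muc2 was at 14916, 13210 and 1684 CPM in CONV-WT, the last of which lay among the CONV-Ern2-/- libraries (2043, 1337 and 1138.5 CPM). The part of either in the CONV calls was not tested. B3gnt6 was called in all 3 states, with log2 differences of -2.31 in GF, -2.46 in CONV (adjusted p = 5.22e-05) and -2.32 in COLONIZED mice (adjusted p = 5.15e-14). Plet1 was at -2.75 in CONV (adjusted p = 6.78e-06) and -1.34 in COLONIZED mice (adjusted p = 0.0597). Rn45s was at -0.23 in CONV (adjusted p = 0.788) and -2.25 in COLONIZED mice (adjusted p = 6.67e-13). Lars2 was at -0.12 in CONV (adjusted p = 0.876) and -0.96 in COLONIZED mice (adjusted p = 0.517), and Snord22 at 0.45 (adjusted p = 0.917) and 0.60 (adjusted p = 0.782), and for both genes the genotype labels overlapped in each of these states. Derl3, not called in GF mice, was at 2.85 in CONV (adjusted p = 0.00014) and 3.28 in COLONIZED mice (adjusted p = 1.39e-21). B3gnt6 levels were 12.0 to 31.9 CPM in GF-WT and 13.4 to 47.3 CPM in CONV-WT, against 2.30 to 5.54 CPM in GF-Ern2-/- and 4.52 to 6.99 CPM in CONV-Ern2-/-, so that the WT ranges overlapped between states, as did the Ern2-/- ranges. Retnlb, at 11.6 to 23.4 CPM in GF-WT, reached 501 to 2299 CPM in CONV-WT and 46.5 to 104.03 CPM in CONV-Ern2-/-, and its log2 difference was -1.10 in GF and -4.30 in CONV mice.

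The difference between states was tested directly. Of 13027 genes, 23 (0.177%) had a genotype difference that differed between CONV and GF mice, and of 17884 genes 5 (0.028%) between COLONIZED and GF mice. These counts ran from 5 to 28 and from 1 to 4 over left-out GF libraries, and were 16 and 0 with sex as a term. Retnlb (interaction log2 -3.20, adjusted p = 0.0043), Gfi1 (-2.61, adjusted p = 2.95e-06) and Saa1, an acute phase protein (3.05, adjusted p = 0.00719), were among the 23, and edgeR called 0 of either interaction, with 957 and 947 genes at an unadjusted p under 0.05. Of 245 genes that were lower in CONV-Ern2-/- and tested in GF mice, 216 (88.2%) were below 0 in GF as well, with a median of -0.37 in GF against -1.85 in CONV mice. Over all genes with a mean of 10 or more, 5754 of 12527 were below 0 in GF mice and 6773 above. The median log2 difference of these 12527 genes was 0.02, and -0.004 without GF-Ern2-/- replicate 2. Without GF-Ern2-/- replicate 2 the share of the 245 was 80.4% and the median -0.24. For 134 genes higher in CONV-Ern2-/- it was 67.9% above 0, and 28.4% without that library. Of 101 genes lower in COLONIZED-Ern2-/-, 74.3% were below 0 in GF mice (75.2% without that library), and of 61 genes higher, 72.1% were above 0 (59.0% without it). Over 11879 genes with a mean of at least 10 in each state, 10 (0.0842%) were higher and 56 (0.471%) lower without overlap in GF, CONV and COLONIZED mice alike. Of the 396 goblet signature genes among them, 0 were higher and 10 (2.53%) lower.

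**Figure D5:**
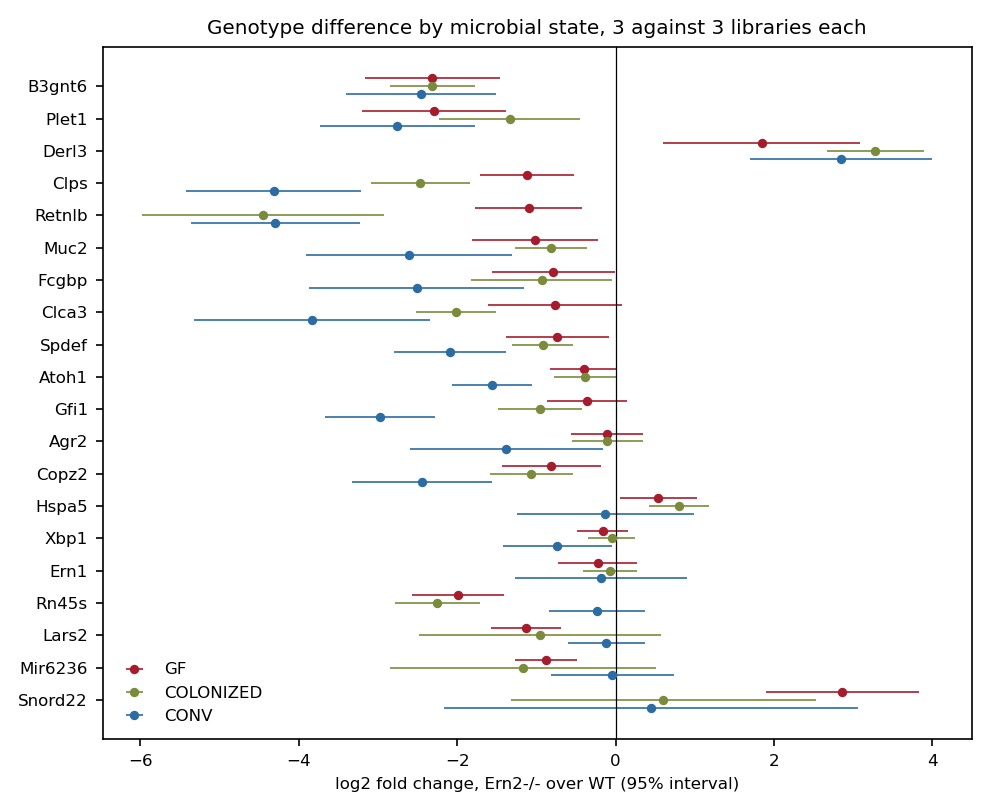
Log2 fold change of Ern2-/- over WT with its 95% interval (horizontal axis) for named genes (rows) in GF (red), COLONIZED (green) and CONV mice (blue), 3 libraries against 3 in each. B3gnt6 lies between -2.46 and -2.31 in each state, and Derl3 lies at 1.85 in GF, 2.85 in CONV and 3.28 in COLONIZED mice.

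Ern2 lies at chr7:122169893-122186239. Within 25 Mb of it, 391 genes were placed, of which 2.81% were higher and 3.07% lower without overlap in GF mice, against 3.22% and 2.98% of all other placed genes. Of these 391 genes, 5 (1.28%) were non-overlapping the same way in every state, against 61 of 12063 (0.506%) elsewhere. The 5 and 61 genes had to have a mean of 10 or more in each state, which was not required of the 391 and 12063. In narrower windows the count was 1 of 168 genes (0.595%) within 10 Mb and 1 of 85 (1.18%) within 5 Mb. The 5 genes were 1810010D01Rik, B3gnt6, Kdm8, Efcab4a and Arap1, chosen after their values were seen. Relative to Ern2 along the chromosome, B3gnt6 lies at -23.98 Mb, Arap1 at -20.80 Mb, Kdm8 at 3.28 Mb, Efcab4a at 19.29 Mb and 1810010D01Rik at 23.03 Mb.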

How the data were processed

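Crypts were freed with EDTA and collected on a strainer. Per the labels and methods, libraries were made with a stranded mRNA kit, sequenced as single-end reads and aligned with STAR to mm10 (GRCm38) in the VIPER pipeline. Gene counts were deposited unnormalized, 1 column per library. Versions, annotation and strandedness of counting are not given in the sources used here, so that overlapping and antisense genes are uncertain. DESeq2 1.42.0 in R 4.3.3 (Wald test, default size factors, independent filtering, Cook's filter) was fitted on the 6 GF libraries and separately on each other state, at a Benjamini-Hochberg adjusted p under 0.01. Interactions used 12 libraries. Alternatives were edgeR 4.0.16, limma 3.58.1 with voom, other filters and size factors, a replicate block, sex or library total as a term, all 18 libraries and each library left out. The fits were also tried on simulated data, the outcome of which is not reported here. Lists, genes and comparisons were chosen with earlier results of these data known. Leaving out GF-Ern2-/- replicate 2 for lists was added after the data were seen. Genes were named by rule: Ern2, all called genes, up to 8 non-overlapping uncalled genes each way by lowest p (mean of at least 100), a fixed panel, and for each list up to 3 lowest-p and 2 highest-mean members. Of 17198 genes, 17093 were matched to RefSeq coordinates, and 27 symbols read as dates. The depth of 13.8 to 23.2 in units of 1e6 counts limits genes of low counts.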

Additional observations from a re-analysis of the deposited data

Results flagged for a closer look

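The genotype difference was flagged where it differed between microbial states by the interaction test of DESeq2 (adjusted p under 0.01). Between CONV and GF mice 23 genes met this, and between COLONIZED and GF mice 5. Over left-out GF libraries the counts ran from 5 to 28 and from 1 to 4. Retnlb, a goblet cell antimicrobial protein, had an interaction of -3.20 on the log2 scale (-1.10 in GF and -4.30 in CONV mice). Gfi1, a transcription factor of secretory cells, had -2.61 (-0.36 in GF and -2.97 in CONV mice). Saa1, an acute phase protein, had 3.05, as it was -0.88 in GF and 2.17 in CONV mice. By edgeR 0 genes passed for either state, with 957 and 947 genes at an unadjusted p under 0.05.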

How the results depend on the processing

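The 6 calls of DESeq2 became 0 in edgeR (194 genes at an unadjusted p under 0.05), 0 in limma with voom (176) and 2 with library total as a term, and over fits that left out 1 library they ran from 1 (without GF-WT replicate 2 or 3) to 12 (without GF-WT replicate 1). Other settings gave 4 to 7 calls. Of the alternative values that could be computed for the 6 called genes, 49 kept their call, 44 lost it and 0 changed sign. Eif2s3y has no value in edgeR, limma or the filter of 10 counts in 3 libraries, which leave it out. Ern2 was at 0.55 with sex as a term, -0.57 in limma with voom, -0.51 with the replicate block, -0.30 with library total as a term, and from -0.51 to 0.42 over left-out libraries (0.02 without GF-WT replicate 1, 0.42 without GF-Ern2-/- replicate 2). With 1.5-fold in place of 2-fold, 518 of 5118 genes lay within the limit, and at 2-fold 6362 to 9193 did over left-out libraries. The CONV interaction gave 0 genes in edgeR and 41 with the replicate block, and 5 to 28 over left-out libraries. The COLONIZED interaction gave 0 in edgeR and 0 with sex as a term (896 at an unadjusted p under 0.05), and 1 to 4 over left-out libraries. Leaving out GF-Ern2-/- replicate 2 raised the genes without overlap from 402 to 859 and from 374 to 621, as fewer libraries were compared. The replicate numbers did not pair the samples: same-numbered libraries correlated at 0.591, 0.285 and -0.035, and GF-Ern2-/- replicate 2 correlated best with GF-WT replicate 3 (0.366). With the replicate block 4 genes were called, of which 3 were shared, and Rn45s (-1.95, adjusted p = 1), Snord22 (2.81, adjusted p = 1) and Eif2s3y (adjusted p = 0.0666) lost their calls. Cause was not tested for any of these changes.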
